A study of Mus musculus with 6 samples.

Results

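Marcks, Marcksl1 and Basp1 encode small acidic proteins that carry a myristate on the N terminus and lie on the inner face of the plasma membrane. They were found by their symbols among the 23154 genes of the deposited table, and all 3 of 3 passed the filter on low values. That filter is a mean of at least 10 over all 6 libraries. Marcks passed it only through the NUR77 line, with a mean of 193 there and 0.854 in the GFP line. They were chosen by function and selected on their NUR77 and GFP values, with the difference between the lines already known, so that difference is given below as a description, without a test.

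Polyadenylated RNA was sequenced from the mouse macrophage-like cell line RAW264.7. One stable line carried the pINDUCER20b-HA-NUR77 transgene, which makes HA-tagged NUR77 under doxycycline, and a second stable line carried pINDUCER20b-GFP as control. Both lines received doxycycline at 1 µg/mL for 18 hours, beginning 24 hours after seeding, and 3 dishes were taken from each. Each group is 1 stable line, so the effect of the transgene and any other difference between the lines cannot be told apart; p-values reflect only how dishes of 1 line vary. Cells kept without doxycycline were not analysed here.

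MARCKS and MARCKS-like protein 1 bind the inner membrane by their myristate and by a short basic stretch, the effector domain. That stretch binds calmodulin, crosslinks actin and covers the phospholipid PIP2 (phosphatidylinositol 4,5-bisphosphate). Protein kinase C phosphorylates serines in it and releases the protein from the membrane, and phosphatases such as calcineurin reverse this. BASP1, known in neurons as CAP-23, likewise has a myristate and a basic stretch that binds calmodulin and PIP2, and in the nucleus it acts as a co-repressor of WT1. GAP43 of nerve growth cones is grouped with MARCKS and BASP1 for its basic stretch that binds calmodulin and PIP2, and not for a myristate. In macrophages, MARCKS is known as a protein kinase C substrate whose synthesis rises with inflammatory stimuli.

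The promoters of Marcksl1 and Basp1 are shown because both transcripts were higher in the NUR77 line and because their base composition differs. The RefSeq table used here (GRCm38.p6, the mm10 assembly) held windows for these 2 of the 3 genes and none for Marcks. Each line gives the 250 bases before the start site, 5′ to 3′ in the direction of the gene, with capitals for matches to any of the motifs listed next.
Marcksl1, chr4:129513331-129513580, plus strand: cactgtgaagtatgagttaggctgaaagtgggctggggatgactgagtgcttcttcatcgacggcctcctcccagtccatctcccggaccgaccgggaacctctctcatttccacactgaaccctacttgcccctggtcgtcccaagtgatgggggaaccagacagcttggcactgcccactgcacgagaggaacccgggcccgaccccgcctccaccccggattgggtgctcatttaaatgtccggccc
Basp1, chr15:25413765-25414014, minus strand: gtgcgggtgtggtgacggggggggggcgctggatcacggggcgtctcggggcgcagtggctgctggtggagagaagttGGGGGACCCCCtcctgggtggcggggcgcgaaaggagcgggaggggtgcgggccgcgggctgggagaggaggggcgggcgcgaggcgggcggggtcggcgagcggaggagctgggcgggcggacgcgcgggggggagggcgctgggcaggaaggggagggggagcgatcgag

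The Basp1 window was 78.8% G+C with 30 CpG dinucleotides, more CpG than 94.1% of the 32851 windows in the table. The Marcksl1 window was 60.4% G+C with 12 CpG, more than 66.5% of windows; the medians over all windows were 52.4% and 6. Motifs were searched on both strands over the whole 300 bases, which add 50 bases after the start site. The NUR77 monomer element AAAGGTCA was not found in either window and is present in 1.51% of all windows. Sequence outside these windows was not searched. The AP-1 site TGANTCA (7.81% of windows), the interferon-stimulated response element (3.44%), the E-box CACGTG (7.15%) and the TATA sequence TATAAA (13.6%) were also not found in either. The NF-kB consensus, present in 8.46% of all windows, was matched at 2 overlapping positions before Basp1, which make up the 11 capital letters above, and was not matched in the Marcksl1 window. These matches describe letters only, and no binding was measured in the libraries analysed here.

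The unit of all levels is the normalized read, which is 1 read of every 10000000 that fell on genes. Depth was 11199468 to 15929487 reads per library, and limma was run on the 11201 genes that averaged at least 10 normalized reads. Of these, 66.7% were called at a Benjamini-Hochberg adjusted p under 0.05, with 38.4% higher and 28.3% lower in the NUR77 line. Nr4a1, which encodes NUR77, rose from 160 ± 11 to 300 ± 13.2 normalized reads (SD, n = 3; log2 difference 0.90, SE 0.08, limma adjusted p = 5.5e-08). The deposited values do not separate transgene from endogenous reads.

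Marcks (ENSMUSG00000069662, chromosome 10, 37133375 to 37138920, minus strand in mm10) had 0, 1.26 and 1.31 normalized reads in GFP replicates 1, 2 and 3. In NUR77 replicates 1, 2 and 3 it stood at 199, 214 and 165. The transcript was thus near absence in every GFP library and at a moderate level in every NUR77 library, with no overlap. The GFP values rest on 0, 2 and 2 reads and the NUR77 values on 223, 307 and 207. The ratio of summed reads, 737 against 4 and scaled for depth, was 220 (exact 95% binomial interval 85.7 to 811, covering counting error only). Its log2 difference was 6.79 (SE 0.30) in log2(value + 1) units, where a gene near 0 shows less than its full change.

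Basp1 (ENSMUSG00000045763, chromosome 15, 25363277 to 25413764, minus strand) gave 28.6, 13.8 and 26.8 normalized reads in GFP replicates 1, 2 and 3. The NUR77 libraries held 2780, 2773 and 2720. Basp1 was therefore low but detected in each GFP library, on 22 to 41 reads, and abundant in each NUR77 library, on 3113 to 3981 reads. The means were 23.1 ± 8.06 and 2758 ± 32.7 (SD, n = 3), a ratio of 120 and a log2 difference of 6.91 (SE 0.28). GFP replicate 2 was the lowest of the GFP libraries, and without it the log2 difference was 6.59.

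Marcksl1 (ENSMUSG00000047945, chromosome 4, 129513581 to 129515985, plus strand), which encodes MARCKS-like protein 1, differed less. It had 148, 176 and 186 normalized reads in GFP replicates 1, 2 and 3, and 466, 472 and 391 in NUR77 replicates 1, 2 and 3. Unlike the other two, it was well covered in both lines, with at least 213 reads in every library. The means were 170 ± 19.5 and 443 ± 45.5 (SD, n = 3), a ratio of 2.6 and a log2 difference of 1.38 (SE 0.10).

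**Figure D1:**
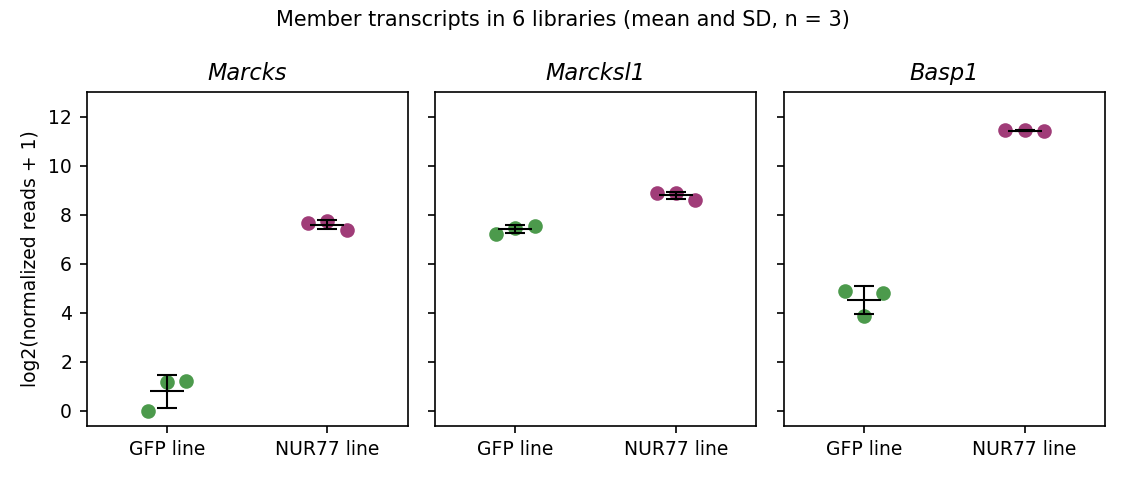
Normalized reads of each gene, as log2(value + 1), in the 3 GFP and 3 NUR77 libraries (points), with the mean and SD of each line (bars). Marcks and Basp1 are separated by 6.79 and 6.91 log2 units and Marcksl1 by 1.38, and in no panel do the lines overlap.

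In all 3 genes every NUR77 library lay above every GFP library. That was so for 40.3% of all tested genes, so the separation alone is common in these data. The 3 genes were also selected on these values. By log2 difference with a pseudocount of 1, Basp1 ranked 7, Marcks 12 and Marcksl1 596 among the rises of the 11201 tested genes. The order of Basp1 and Marcks depends on the setting: Marcks was ahead with a pseudocount of 0.5 (7.36 against 6.94), with limma-voom (7.64 against 6.96) and without GFP replicate 2 (6.99 against 6.59). A log2 difference over 6 was reached by 19 tested genes. The quartiles of the log2 difference over all tested genes were -0.25 and 0.37, with a median of 0.06. Fewer cells that make a transcript and less of it per cell cannot be told apart in these bulk samples.

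Within a line, the libraries varied by different amounts. In the NUR77 line the coefficient of variation was 1.19% for Basp1, 10.3% for Marcksl1 and 13.1% for Marcks. In the GFP line it was 11.5% for Marcksl1, 34.9% for Basp1 and 86.7% for Marcks, the last on 4 reads in all. NUR77 replicate 3 was the lowest NUR77 library for all 3 genes, by 0.03 log2 units for Basp1 from the highest to the lowest library, 0.27 for Marcksl1 and 0.38 for Marcks.

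Per kilobase of annotated exon, the most abundant gene changed between the lines. Exonic lengths were 4048 bases for Marcks, 1605 for Marcksl1 and 2009 for Basp1. In the GFP line the order was Marcksl1 at 106 ± 12.2 normalized reads per kb, Basp1 at 11.5 ± 4.01 and Marcks at 0.211 ± 0.183 (SD, n = 3). In the NUR77 line it was Basp1 at 1373 ± 16.3, Marcksl1 at 276 ± 28.3 and Marcks at 47.6 ± 6.24. Neighbours in both orders were separated in each library of the line.

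Marcksl1 made up 86.7% to 93.8% of the summed per-kb level of the 3 genes in the GFP libraries. In the NUR77 libraries Basp1 made up 79.9% to 82.7%, Marcksl1 14.9% to 17% and Marcks 2.48% to 3.06%. The ratio of Basp1 to Marcksl1 per kb was 0.15, 0.063 and 0.11 in GFP replicates 1, 2 and 3, and 4.76, 4.69 and 5.56 in the NUR77 replicates. The ratio of Marcksl1 to Marcks, the closest pair by family, was 5.57 to 5.98 in the NUR77 libraries. Set against 18408 named genes with a read, Basp1 had a higher per-kb level than 45.7% of genes under GFP and 98.7% under NUR77. For Marcks these shares were 17.4% and 58.5%, and for Marcksl1 74.2% and 89.6%.

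**Figure D2:**
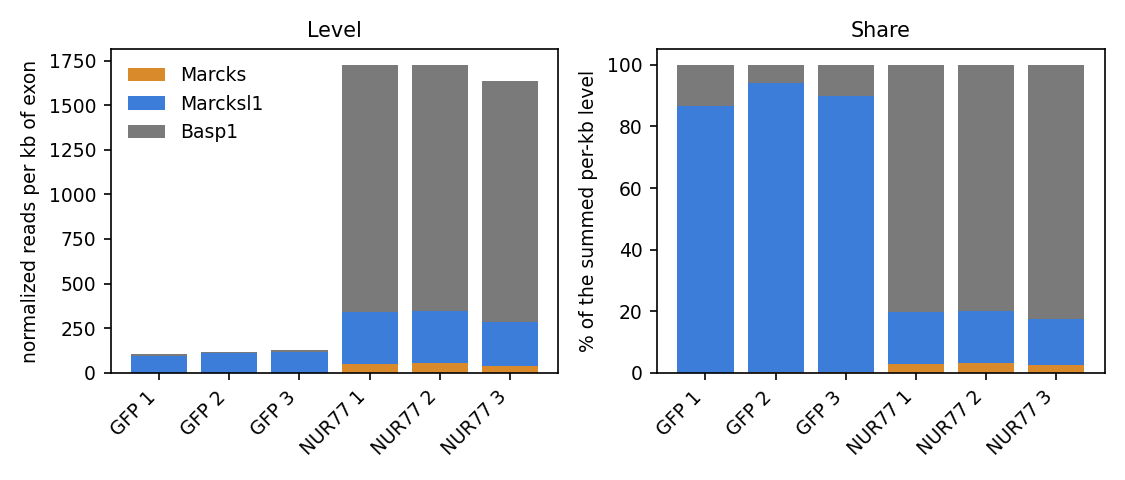
Left, the per-kb levels of the 3 genes stacked for each library, in normalized reads per kb of exon; right, each gene's share of that sum. The sum runs from 107 to 130 in the GFP libraries and from 1638 to 1728 in the NUR77 libraries, with Marcksl1 the largest share in the first and Basp1 in the second.

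Gap43, the neuronal relative, had no read in any of the 6 libraries. Of 10 neuronal markers, 6 had no read in any library, among them Snap25 and Syt1 of the synaptic vesicle machinery and Rbfox3 of neuronal nuclei. Summed, the 10 markers held 2.09 to 6.91 normalized reads in the GFP libraries and 39 to 52.7 in the NUR77 libraries. Most of the latter was Syn1, which encodes a synaptic vesicle protein and rose from 1.3 ± 0.633 to 33.5 ± 7.34 (log2 difference 3.92, adjusted p = 2.2e-08); its part in the differences above was not tested. All 9 macrophage markers were detected in both lines, but their sum was 72618 to 73852 normalized reads in the GFP libraries and 27536 to 28795 in the NUR77 libraries. Of the 9, 5 fell, 2 rose and 2 were not called. Lyz2, macrophage lysozyme, fell from 26664 ± 848 to 2566 ± 506 (-3.39, adjusted p = 4.3e-07), Mpeg1 from 16580 ± 261 to 1019 ± 122 (-4.03) and Cd68 from 14010 ± 254 to 5136 ± 241 (-1.45), while Itgam rose by 1.18. Spi1, the myeloid factor PU.1, was at 1119 ± 72.8 and 1190 ± 69.9 (0.09, adjusted p = 0.21), and Ptprc at 0.03 (adjusted p = 0.64). The part of these marker differences in the values of the 3 genes was not tested.

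The 9 dendritic cell markers summed to 182 to 232 normalized reads in the GFP libraries and 194 to 348 in the NUR77 libraries. Of these markers 3 were tested, of which 2 rose and 1 fell. Ccr7 had no read under GFP and 223 ± 80.7 normalized reads under NUR77. Zbtb46 rose from 15.1 ± 4.37 to 43.2 ± 6.07 (log2 difference 1.49, adjusted p = 2.7e-05), and Itgax fell from 169 ± 20.7 to 12.2 ± 4.91. Flt3 had no read in any library. NUR77 replicate 1 held more fibroblast and muscle marker reads than the other NUR77 libraries. The 8 fibroblast markers summed to 119 normalized reads there, against 29.4 to 43.9 in the other two and 19 to 23.7 in the GFP line. The muscle actin gene Acta1 stood at 51.8 against 8.75 to 12.5, and 9.76 or less in the GFP line. The 12 muscle markers summed to 277 in that library, 99.6 and 111 in the other two and 370 to 423 in the GFP line, where Tnni2 alone was at 364 ± 25.3. Marcks, Marcksl1 and Basp1 in NUR77 replicate 1 did not stand apart: 199 lay between the other two values of Marcks, 466 between those of Marcksl1, and 2780 differed from the next Basp1 value of 2773 by less than the SD.

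The genes of the lists drawn up around these proteins moved in both directions, with a median size of change near that of all tested genes. In all, 11 lists with 109 genes covered Gap43, kinases, phosphatases, calmodulin, myristoylation, phosphoinositide enzymes, actin partners and the nuclear partners of BASP1. Of their 90 tested genes, 69 (76.7%) were called, 42 higher and 27 lower, against the 66.7% of all tested genes. Changes of 2-fold or more were called in 7 of the 90 (7.78%), against 13.9% of all tested genes. The median absolute log2 difference was 0.28, against 0.31 over all tested genes.

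The genes listed for N-myristoylation, which adds the lipid shared by all 3 proteins, rose in 4 of 4 cases, with a median log2 difference of 0.42. Over all tested genes 38.4% were called higher, and a list of 4 genes is too short to set against that share. Nmt1, an N-myristoyltransferase, rose from 1672 ± 57.2 to 2243 ± 26.2 normalized reads (adjusted p = 8.9e-07), and its paralog Nmt2 from 678 ± 3.73 to 909 ± 3.97 (adjusted p = 1.9e-06). Metap1, which removes the initiator methionine before the lipid is added, rose from 581 ± 21.3 to 778 ± 28.2. Metap2 rose too (log2 difference 0.16, adjusted p = 0.0091), but did not pass under TMM scaling (0.09, adjusted p = 0.14), median-of-ratios scaling (0.088) and upper-quartile scaling (0.099).

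Of the 9 protein kinase C genes, 6 were tested, of which 2 rose and 3 fell (median -0.08). The count of rises in this list was 1 under each of the 3 other scalings, without a filter, and without GFP replicate 2 or 3 or NUR77 replicate 2 or 3. Prkca, a classical calcium-dependent isoform, went from 118, 101 and 115 normalized reads with GFP to 186, 168 and 199 with NUR77 (log2 difference 0.72, SE 0.10, adjusted p = 1.1e-05). Prkci, an atypical isoform that needs no calcium, fell from 653 ± 21.6 to 404 ± 20.4 (-0.69, adjusted p = 4.5e-08), and Prkch from 2024 ± 82.6 to 1696 ± 91.9 (-0.26, adjusted p = 5.7e-04). Prkce was at 0.01 (adjusted p = 0.94).

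Genes for the phosphatases that act on phosphorylated MARCKS, together with Rock1 and Rock2, numbered 11, of which 6 rose and 1 fell (median 0.15). The calcineurin catalytic genes split, with Ppp3ca down from 1303 ± 49.7 to 966 ± 21.6 normalized reads (-0.43, adjusted p = 1.7e-06) and Ppp3cc up from 300 ± 11 to 453 ± 8.19 (0.59, adjusted p = 5.3e-07). Ppp1cb, a catalytic subunit of protein phosphatase 1, rose from 2915 ± 80 to 3970 ± 69 (0.45), and Rock1 by 0.22. Ppp2ca and Ppp1cc stood at 0.08 and 0.09 (adjusted p = 0.17 and 0.16). Under TMM scaling the list had 3 that rose and 2 that fell, and under both other scalings also 2 that fell. Of the calmodulin genes, 1 of 3 tested was called: Calm2 fell from 2784 ± 35.8 to 1825 ± 56.4 (-0.61, adjusted p = 7.5e-09). Calm3 was at -0.08 (adjusted p = 0.25), and passed as lower under TMM (-0.15, adjusted p = 0.037) and upper-quartile scaling (-0.14, adjusted p = 0.049).

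Kinases that make PIP2, the lipid that the basic stretches cover, rose in 4 and fell in 4 of 10 cases (median -0.08). Pip5k1c, which makes PIP2 at adhesions, fell from 1941, 2046 and 1892 normalized reads to 725, 757 and 809 (log2 difference -1.36, SE 0.06, adjusted p = 1.5e-12). Its paralog Pip5k1b rose from 230 ± 16.2 to 327 ± 27.5 (0.51, adjusted p = 5.0e-05), and Pip5k1a was at -0.07 (adjusted p = 0.28). Pi4ka, which supplies the precursor at the plasma membrane, fell from 2794 ± 67.1 to 1808 ± 67.7 (-0.63), and Pi4k2b rose from 462 ± 17 to 689 ± 55.5 (0.57). Pi4kb was at -0.09 (adjusted p = 0.15). Pi4kb and Pip5k1a passed as lower under TMM scaling (-0.16 and -0.15, adjusted p = 0.012 and 0.033). Both also passed under upper-quartile scaling (-0.15 and -0.13, adjusted p = 0.019 and 0.046), and Pi4kb under median-of-ratios scaling (-0.15, adjusted p = 0.023).

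Genes of the phospholipase C family, most of which cut PIP2, rose in 2 of 7 tested cases and fell in 3 (median -0.03), and 2 of the 14 listed had no read. Plcd3 had 42.5, 37.7 and 41.2 normalized reads in GFP replicates 1, 2 and 3, and 168, 199 and 200 with NUR77 (log2 difference 2.19, SE 0.12, adjusted p = 6.3e-11). Plcg1, the isoform activated by tyrosine kinases, rose from 330 ± 25 to 699 ± 10.4 (1.08, adjusted p = 2.7e-10). Plcg2, the isoform of blood cells, stood at 2240 ± 117 and 2304 ± 11.2 (0.04, adjusted p = 0.48). The beta isoform genes Plcb3 and Plcb4 fell by 0.25 and 0.36.

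Inositol phosphatases, most of which act on PIP2 or PIP3, rose in 6 of 11 tested cases and fell in 3 (median 0.17). Synj1, which removes the 5-phosphate of PIP2, rose from 815 ± 21.9 to 1609 ± 144 normalized reads (0.98, adjusted p = 4.9e-10), and Inpp5f from 336 ± 13.2 to 565 ± 11.3 (0.75). Inpp5e fell by 0.29. Inpp5a was at -0.24 (adjusted p = 0.072), and passed as lower under TMM scaling (-0.31, adjusted p = 0.02). It also passed under median-of-ratios and upper-quartile scaling (adjusted p = 0.026 and 0.025), and without NUR77 replicate 2 (adjusted p = 0.037). Without GFP replicate 1, GFP replicate 2, the filter or the trend, 1 member of this list was called lower in place of 3.

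Class I PI3-kinases consume PIP2 to make PIP3, and of their 9 genes 2 rose and 4 fell (median -0.09). Pik3ca, the alpha catalytic subunit, fell from 1073 ± 10.4 to 590 ± 47.5 (-0.86, adjusted p = 2.3e-09), Pik3r1, a regulatory subunit, from 636 ± 26.5 to 444 ± 10.6 (-0.52), and Pik3r6 from 226 ± 6.8 to 145 ± 9.76 (-0.64). Pik3cb fell by 0.39. Pik3cg and Pik3r2 were at -0.09 and -0.05 (adjusted p = 0.15 and 0.58). Pik3cg passed as lower under TMM scaling (-0.16, adjusted p = 0.013) and with NUR77 replicate 3 left out (adjusted p = 0.026). It also passed under median-of-ratios and upper-quartile scaling (adjusted p = 0.023 and 0.019). Under TMM, median-of-ratios and upper-quartile scaling, and without NUR77 replicate 2, 1 gene of this list was called higher in place of 2.

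Proteins that bind PIP2 or build the cortical actin layer had 13 genes that rose and 7 that fell of 25 tested (median 0.24). Tln1, talin, which links integrins to actin, fell from 19516, 19820 and 19905 normalized reads to 7902, 8463 and 8230 (-1.27, SE 0.05, adjusted p = 2.0e-13). Coro1a, an actin-binding protein of leukocytes, rose from 3512 ± 96.6 to 7100 ± 439 (1.01, adjusted p = 2.6e-11), and Evl, an Ena/VASP actin regulator, from 98.6 ± 8.87 to 210 ± 18.7 (1.08, adjusted p = 9.0e-08). Pfn2, a profilin, rose from 7.17 ± 4.19 to 27.6 ± 6.31 (1.91, adjusted p = 9.2e-05). Cfl1 and Gsn, the actin-severing proteins cofilin and gelsolin, stood at 0.03 and -0.06 (adjusted p = 0.63 for both).

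**Figure D3:**
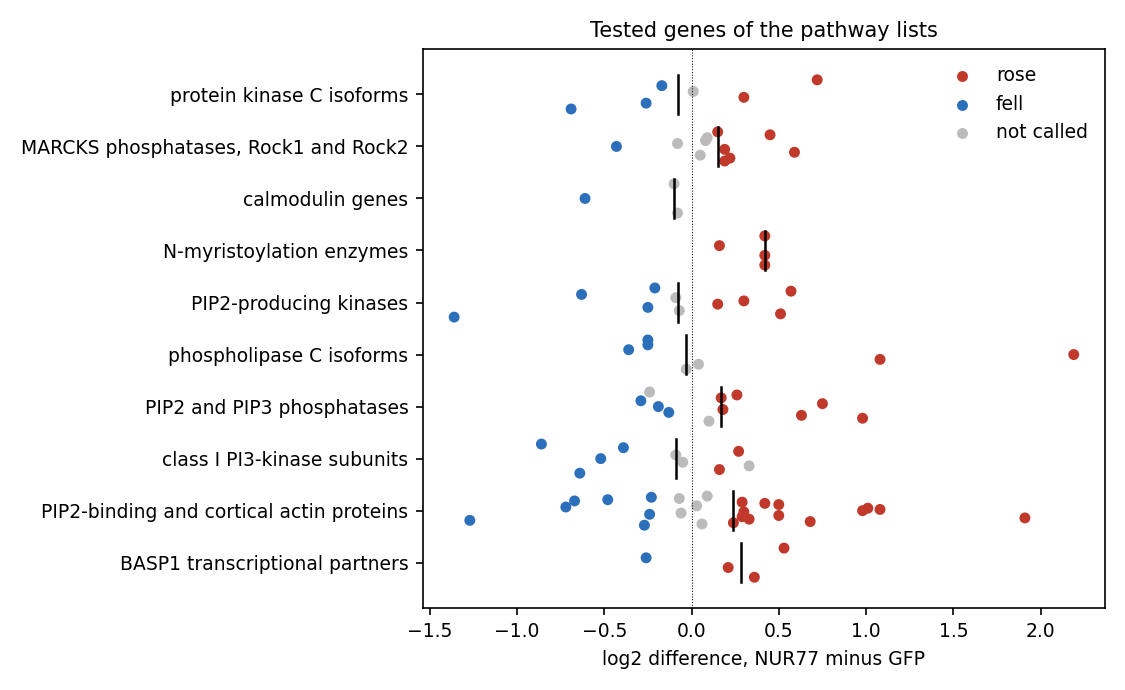
Log2 difference, NUR77 minus GFP, of each tested gene of the pathway lists (points, coloured by the limma call) with the median of each list (black line). The list medians lie between -0.10 and 0.42, and Plcd3 at 2.19 is the highest point.

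Of the nuclear partners of BASP1, Wt1 had no read in any library. Hdac1, a histone deacetylase, rose from 563 ± 28.2 to 814 ± 41.5 normalized reads (0.53, adjusted p = 8.7e-07), Smarca4, a chromatin remodelling ATPase, by 0.36 and Phb2 by 0.21. Phb, prohibitin, fell from 575 ± 50.7 to 480 ± 30.2 (-0.26, adjusted p = 0.0054).

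Tested genes around each of the 3 moved in both directions, at about the 66.7% called over all tested genes. Among the 10 nearest tested genes on each side of Marcks, 6 rose, 6 fell and 8 were not called, 12 calls in 20, with a median log2 difference of 0.07. Around Basp1, 8 rose, 6 fell and 6 were not called (median 0.02), and around Marcksl1 9 rose, 6 fell and 5 were not called (median 0.15). These windows differ in width, spanning 0.77 Mb for Marcksl1, 8.76 Mb for Marcks and 20.80 Mb for Basp1, where the 10 genes on the lower side start 12.5 to 14.8 Mb away. Within 1 Mb of Basp1, a window chosen after the data were seen, 3 of 4 tested genes rose and none fell: Myo10 by 1.21, March11 by 1.22 and Zfp622 by 0.23, with Retreg1 at 0.01 (adjusted p = 0.9). Of all tested genes 38.4% were called higher, and 4 genes are too few to set against that share. Within 1 Mb of Marcks the 1 tested gene, Hdac2, rose, and within 1 Mb of Marcksl1 13 rose and 7 fell of 31. The nearest tested coding genes beside Marcks were Hdac2, which rose by 0.51 (adjusted p = 3.0e-07), and Fam229b at -0.43 (adjusted p = 0.14), which passed as lower when NUR77 replicate 1 was left out (-0.67, adjusted p = 0.028). Beside Basp1 they were Myo10, an unconventional myosin of filopodia 208.8 kb away, which rose from 788 ± 17.6 to 1822 ± 72.4 (1.21, adjusted p = 2.9e-12), and Drosha at 0.04 (adjusted p = 0.61). Beside Marcksl1 they were Bsdc1 at 0.13 (adjusted p = 0.1) and Hdac1, described above, on the opposite strand, with the annotated 3′ ends 0.1 kb apart. No source used here states whether counting used strand, so reads past either 3′ end could be counted for the other gene.

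**Figure D4:**
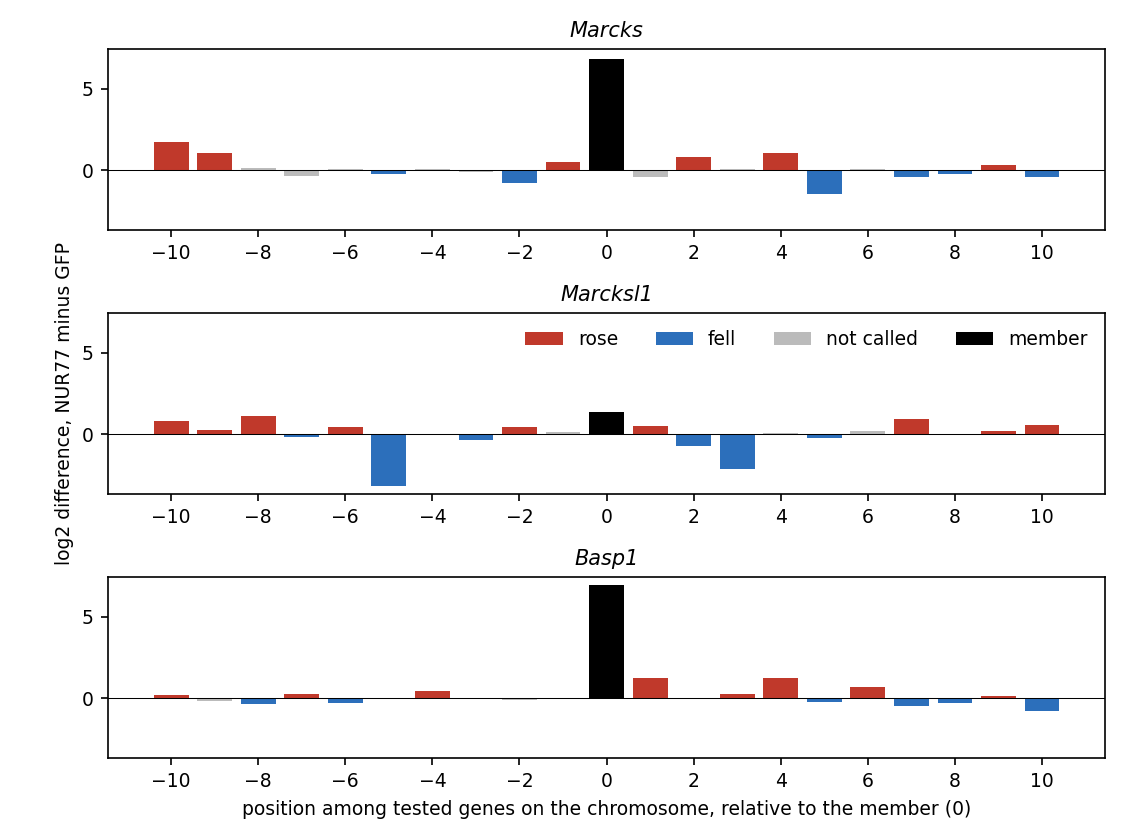
Log2 difference of the 10 tested genes on each side of each member, in chromosome order (bars, coloured by the limma call), with the member in black at 0. Marcks at 6.79 and Basp1 at 6.91 stand well above all 20 of their neighbours. Marcksl1 at 1.38 is also above all 20 of its own, the highest of which is Rnf19b at 1.14. The members were selected on this difference, so their place above the neighbours is a description only.

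No other annotated gene overlaps any of the 3. Transcripts of Marcks and Basp1 had no similar stretch in another annotated gene. Marcksl1 had 3: 1061 bases at 91.2% identity in Akr1c19, 495 bases at 90.7% in the pseudogene Gm9089 and 306 bases at 90.2% in Marcksl1-ps4. The last lies within the span of Akr1c19 on the same strand. Both matches begin at base 544 of Marcksl1, so they may be the same copy. Gm9089 had no read in any library, and Akr1c19 and Marcksl1-ps4 were not among the deposited genes. In this respect only, Marcksl1 is less certain than the other two, since reads from such copies could be counted for it or dropped. Whether any were was not tested.

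The genes most like each member were sought over the 6 libraries among 10438 named coding genes. The measure was the Euclidean distance between log2(value + 1) profiles, each centred on its own mean; it is dominated by the difference between the lines. Closest to Basp1 was Nos2, the inducible nitric oxide synthase, at a distance of 0.32. Nos2 had 15.3, 5.65 and 10.5 normalized reads with GFP and 1348, 1267 and 1236 with NUR77, with GFP replicate 2 the lowest of its line as for Basp1. Prdm1, a transcriptional repressor, and Ptprf, a receptor tyrosine phosphatase, followed at 0.78 and 0.83.

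Closest to Marcks were Tmeff1 at 0.77, Ptprf at 0.84 and Prdm1 at 0.90. Tmeff1, a membrane protein with follistatin domains, went from 0, 0.628 and 0.654 normalized reads to 111, 107 and 108. Closest to Marcksl1 were Garnl3 at 0.17, Nipa1, a magnesium transporter, at 0.19 and Aldh7a1, an aldehyde dehydrogenase, at 0.23. Nipa1 stood at 55.2 ± 5.07 and 150 ± 5.96. Basp1 was number 11 in the order of likeness to Marcks, at 1.57, and Marcksl1 number 549, at 6.68.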

How the data were processed

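The deposited table holds a log2 value for each of 23154 Ensembl genes in each library, not pooled. The submitters' processing notes name TopHat2 2.1, HTSeq, DESeq2 and mm10; what each did, and the annotation release and strand setting, is not given in these sources. Per the labels, strand-specific poly(A) libraries were made from 1000 ng of RNA with 12 PCR cycles. With the log undone (2 to the power of the value, minus 1), each library summed to 10000000 and every value was a whole multiple of 1 read (tolerance 0.1), so reads were recovered; 1 read was worth 0.6278 to 0.8929 normalized reads. The equal totals mean that abundant genes that differ between lines shift all others slightly.

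GENCODE M21 (GRCm38, the mm10 assembly) named 22872 genes and gave coordinates and exonic lengths. limma 3.58.1 in R 4.3.3 was fitted to log2(normalized reads + 1) with trend and robust moderation, on all 6 libraries. It took genes with a mean of 10 or more, with Benjamini-Hochberg adjustment over all of them and a threshold of 0.05. Every adjusted p is from this fit unless a setting is named. The code was also run on simulated data with far fewer changed genes than were called here, so that run does not gauge false calls in these data. Similar transcripts were searched with blastn 2.17.0. Protein sequences were not used here.

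The members, lists and rules were chosen with earlier results of these data known. Genes named are the 3 members, Gap43, Nr4a1, up to 4 called and 2 uncalled genes per list, the 3 most similar genes and the flanking genes of each member; markers, and genes with similar sequence, were named besides. Some genes that the rule allows are not reported here. The settings also tried were a pseudocount of 0.5 or 5, a filter of none or a mean of 50, 3 other scalings, limma without trend, limma-voom on the recovered reads, a replicate block and each library left out.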

Additional observations from a re-analysis of the deposited data

How the results depend on the processing

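No setting turned the direction of Marcks, Marcksl1 or Basp1. Because Marcks is near 0 in the GFP line, its log2 difference of 6.79 was 7.36 with a pseudocount of 0.5, 5.08 with a pseudocount of 5 and 7.64 with limma-voom. Leaving out 1 library at a time gave 6.40 to 7.00 for Marcks, 6.59 to 7.09 for Basp1 and 1.28 to 1.46 for Marcksl1. Over all genes, 6749 to 7257 were called with 1 library left out, against 7475. With 4305 genes higher and 3170 lower as deposited, TMM scaling gave 3606 and 3838, median-of-ratios scaling 3767 and 3660, and upper-quartile scaling 3716 and 3713, so more genes were lower only under TMM and the excess of higher genes was small under the other two. Of the list counts, that of the calmodulin genes moved from 1 to 2 without a filter and under TMM or upper-quartile scaling, and ranged from 1 to 2 with 1 library left out; the cause was not tested. With the replicate block 7585 genes were called, and same-numbered libraries deviated together with correlations of 0.00, 0.11 and 0.04 across genes, so the numbers were not taken as pairs. With 25 genes on each side, the median around Marcksl1 was 0.02 in place of 0.15; within 1 Mb, a window added after seeing the data, it was 0.51 around Marcks (1 gene) and 0.72 around Basp1 (4 genes), in place of 0.07 and 0.02. Depth limits Marcks most, with 4 reads in the GFP line.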
